A study of Mus musculus with 6 samples.

Results

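The spliceosome genes described here are the rows of the deposited expression table that carry the KEGG term Spliceosome, leaving out heat shock protein genes, whose names start with Hsp. The term holds 131 of the table's 33919 genes, 5 of them are heat shock genes, and 126 members remain. By class they are 58 proteins of small nuclear ribonucleoproteins (snRNPs), 9 heterogeneous nuclear ribonucleoproteins (hnRNPs), 11 serine- and arginine-rich (SR) proteins, 21 proteins of the PRP19 complex and its partners, 8 helicases and second-step factors, 13 proteins of the exon junction, mRNA export (TREX) and cap-binding complexes, and 6 others. RNA was sequenced as polyadenylated mRNA in paired-end libraries from mouse aorta, with 3 libraries labelled KO and treated with angiotensin II (Ang II) and 3 labelled WT and treated with Ang II, so that both groups received the hormone. The labels name the allele no further than KO, and they give no strain, age, dose or animal identifier. The series title points to OTUD1, a deubiquitinating enzyme. Otud1 itself was higher in the libraries labelled KO, at 14.5, 15.6 and 16.8 CPM, that is, counts relative to library size, against 8.83, 11.6 and 9.83 CPM in the libraries labelled WT (log2 change 0.63, SE 0.12, edgeR adjusted p = 0.00388). The KO label thus did not go with a lower Otud1 transcript level, and the labels do not say whether the allele leaves the transcript. Groups are therefore called by their labels, and each direction is that of the libraries labelled KO.

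The spliceosome removes introns from precursor mRNA. U1 snRNP pairs with the 5′ splice site and U2 snRNP with the branch point, the U4/U6 and U5 tri-snRNP then joins, and the PRP19 complex and a series of RNA helicases drive the rearrangements of both catalytic steps. SR proteins generally bind exonic enhancers and favour the use of nearby splice sites, while many hnRNPs bind silencers and oppose it. In muscle and vessel wall, changes in the balance of such regulators are known to switch isoforms of contractile and cytoskeletal genes.

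The promoters of the 4 SR genes that passed the test are shown because 3 of them were lower and 1 was higher in the same libraries. Each is the 250 bases before the RefSeq start on GRCm38.p6, written 5′ to 3′ on the gene's strand, from chr17:29032410-29032659 (plus strand) for Srsf3, chr16:22266006-22266255 (minus) for Tra2b, chr5:115326927-115327176 (plus) for Srsf9 and chr12:80945249-80945498 (plus) for Srsf5. Capitals mark matches on either strand to 6 motifs: CCGGAAG of the ETS family, CCAAT of NF-Y, the GC box GGGCGG, the E-box CACGTG, the cAMP response element TGACGTCA and the TATA box TATAAA.
Srsf3: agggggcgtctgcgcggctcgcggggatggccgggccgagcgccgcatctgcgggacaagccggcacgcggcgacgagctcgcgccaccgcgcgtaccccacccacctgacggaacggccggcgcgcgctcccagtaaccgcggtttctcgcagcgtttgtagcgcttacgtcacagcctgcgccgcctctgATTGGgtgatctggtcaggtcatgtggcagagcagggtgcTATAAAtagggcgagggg
Tra2b: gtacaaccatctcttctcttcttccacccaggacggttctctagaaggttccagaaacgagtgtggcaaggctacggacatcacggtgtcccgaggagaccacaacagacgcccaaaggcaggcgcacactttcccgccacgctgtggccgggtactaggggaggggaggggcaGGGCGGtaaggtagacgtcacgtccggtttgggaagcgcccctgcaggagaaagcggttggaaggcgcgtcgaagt
Srsf9: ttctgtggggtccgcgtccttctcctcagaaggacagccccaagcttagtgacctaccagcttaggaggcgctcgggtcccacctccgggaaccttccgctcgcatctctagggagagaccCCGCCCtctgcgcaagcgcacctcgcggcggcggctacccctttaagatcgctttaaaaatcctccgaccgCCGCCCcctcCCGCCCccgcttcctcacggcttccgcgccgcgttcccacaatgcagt
Srsf5: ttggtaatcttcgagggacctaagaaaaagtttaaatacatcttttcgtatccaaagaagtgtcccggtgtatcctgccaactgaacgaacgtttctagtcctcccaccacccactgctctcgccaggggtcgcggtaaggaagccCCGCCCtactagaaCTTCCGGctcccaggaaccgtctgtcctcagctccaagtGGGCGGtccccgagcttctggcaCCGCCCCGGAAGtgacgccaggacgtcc
Srsf3 held a CCAAT match in reverse and a TATAAA match, Tra2b a GC box, Srsf9 3 GC boxes, and Srsf5 3 GC boxes and 2 ETS matches, of which 1 pair shares a base. For Srsf3 the last bases of the window lie past the gene start given with its CPM below, and the TATAAA match is among them. Of 126 members, 98 were in the RefSeq table by name. Matching also by chromosome and strand, and keeping genes that were tested, left 92. CCGGAAG was found in 35.9% of the 92 members, against 12.9% of the 11297 tested genes with a promoter in the table. The shares for the other motifs lay closer together, at 40.2% of members and 35.8% of all for CCAAT, 60.9% and 56.7% for the GC box, 8.70% and 7.12% for TATAAA, 5.43% and 8.15% for CACGTG, and 5.43% and 2.61% for TGACGTCA. By class, CCGGAAG was found in 34.9% of 43 snRNP, 27.3% of 11 SR and 12.5% of 8 hnRNP promoters. The genes compared with the members were not matched for expression level. Of the 11 SR promoters 10 held a GC box, and that of Srsf3 did not. A match describes the letters of this window and is no evidence of binding.

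Total counts ran between 65.3 M and 71.5 M in the libraries labelled KO and between 62.3 M and 70.5 M in those labelled WT (M, megacounts). Nuclear genes outside mitochondrial sequence held 23.0 M to 23.4 M counts in the libraries labelled KO and 17.3 M to 19.4 M in those labelled WT. Between 33.0% and 34.9% of counts from 1 to 40 were multiples of 4, against 25% by chance. The totals may therefore overstate the independent fragments, which was not tested. The members took 0.73%, 0.74% and 0.73% of nuclear counts in the libraries labelled KO, against 0.81%, 0.81% and 0.79% in those labelled WT. Summed as CPM under TMM scaling (the trimmed mean of M values), they came to 2320 to 2350 in the libraries labelled KO and 2280 to 2350 in those labelled WT, so the groups overlapped on this scale.

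Spliceosome genes as a whole differed little between the groups. Of 126 members 123 were tested, and 14 passed, 8 higher and 6 lower, at an adjusted p of 0.05 in the quasi-likelihood test of edgeR over 16620 genes. That is 11.4% of the members, while 22.0% of all genes tested passed, 11.5% higher and 10.5% lower. At an unadjusted p of 0.05, 30 members passed, or 24.4%, against 33.1% of all genes. Members' changes were also small: the median was 0.00 and the interquartile range -0.14 to 0.17 on the log2 scale, while for all genes the median was -0.02 and the interquartile range -0.39 to 0.30. None of the 14 changed 2-fold, and their log2 changes were 0.17 to 0.68 in size, whereas 926 genes of all those tested passed with a change of at least 2-fold. The 95% interval of the difference lay within 1.5-fold in either direction for 94 members, or 76.4%, and for 30.0% of all genes. Among the 3498 tested genes whose mean FPKM (fragments scaled by gene length and library size) fell in the members' interquartile range, 1.78 to 5.73, 29.9% passed and 54.0% had such an interval. The 3 libraries of a group all lay above or below the 3 of the other in 36 members, or 29.3%, against 38.6% of all genes. Untested members were Hnrnpa1l2-ps2, with 2 counts in the third library labelled KO and 0 elsewhere, and Gm4340 and Eif4a3l1, with 0 counts in every library. In bulk tissue, fewer cells of a type and less RNA per cell cannot be told apart.

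**Figure D1:**
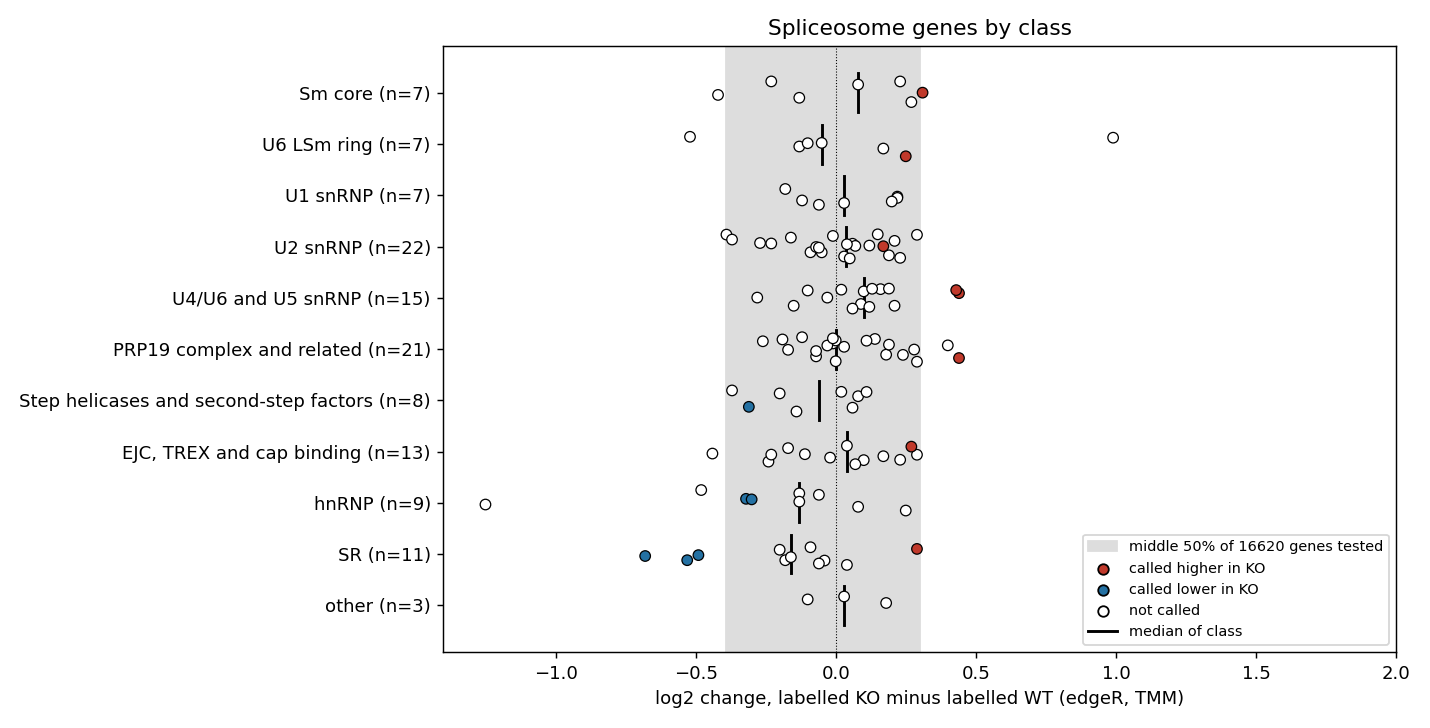
Log2 change of each of the 123 tested spliceosome genes (points), labelled KO minus labelled WT, by class, with the class median as a black line and the interquartile range of all 16620 genes tested (-0.39 to 0.30) in grey. Genes past the threshold are filled in red (8 higher) or blue (6 lower), and the 3 SR genes that fell lie outside the grey band.

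The direction of small changes depended on scaling. On the deposited FPKM scale, tested with limma on log2(FPKM + 1), the median of all genes moved to 0.15 and that of the members to 0.11, a difference of -0.04 from all genes. That test covered 112 members and 8308 genes in all. It called 22 members higher and 3 lower, against 32.6% and 8.86% of all genes. After quantile normalization of the same FPKM values limma called 3 members higher and 9 lower, against 18.2% and 17.1% of all genes. DESeq2, on the counts, called 17 members higher and 10 lower, against 12.2% and 12.3% of all genes. All 14 members named as higher or lower below kept their sign in all 17 alternatives run.

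Of the 11 SR protein genes, Srsf3, Tra2b and Srsf9 fell in the libraries labelled KO, Srsf5 rose, and 7 did not pass the test. These 4 calls are 36.4% of the class, against 22.0% of all genes, and the class median was -0.16 on the log2 scale. On the deposited FPKM scale the class median was 0.00, a difference of -0.15 from that of all genes, and the same split of 1 higher and 3 lower was found with DESeq2 and with limma on FPKM, quantile-normalized or not.

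Srsf3 (ENSMUSG00000071172, chr17:29032628-29043373, GRCm38), which encodes the smallest of the classical SR proteins, had 39.6, 37.5 and 43.4 CPM in libraries labelled KO, against 61.6, 58.7 and 54.0 CPM in those labelled WT. All 3 libraries labelled KO lay below all 3 labelled WT. The gene fell by 0.53 on the log2 scale (SE 0.08, adjusted p = 0.0006). Tra2b (ENSMUSG00000022858, chr16:22244549-22266005), an SR-like protein that binds purine-rich enhancers, had 19.7, 22.0 and 20.0 CPM in libraries labelled KO, against 29.6, 28.2 and 28.4 CPM in those labelled WT. The groups did not overlap, and the gene fell by 0.49 (SE 0.08, adjusted p = 0.00161). Both calls held in all 17 alternatives, with an adjusted p of at most 0.013 for Srsf3 and 0.039 for Tra2b.

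Srsf9 (ENSMUSG00000029538, chr5:115327177-115333080) was the least abundant SR gene in CPM. It had 5.11, 4.82 and 4.02 CPM in libraries labelled KO, against 8.22, 6.35 and 7.72 CPM in those labelled WT. It fell by 0.68 on the log2 scale (SE 0.16, adjusted p = 0.0123), the largest change among the 14 members past the threshold, and this did not hold without the first library labelled WT (0.056, with an adjusted p of 0.0004 to 0.056 over the alternatives). Srsf5 (ENSMUSG00000021134, chr12:80945504-80950507), an SR protein known for its induction in regenerating rat liver, moved the other way. It had 42.1, 45.1 and 42.3 CPM in libraries labelled KO, against 35.3, 33.6 and 36.6 CPM in those labelled WT, with no overlap. It rose by 0.29 (SE 0.07, adjusted p = 0.0112), a call that did not hold without the second library labelled KO (adjusted p = 0.058, with 2.5e-05 to 0.058 over the alternatives).

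The other 7 SR genes, named to complete the class, did not pass the test, and their groups overlapped. Tra2a, the paralogue of Tra2b, had 29.5, 32.7 and 32.4 CPM in libraries labelled KO and 37.0, 39.1 and 32.3 CPM in those labelled WT (log2 change -0.20, adjusted p = 0.146). Srsf2, which encodes the SR protein SC35, had 27.6, 29.8 and 26.7 CPM in libraries labelled KO and 25.1, 27.1 and 29.5 CPM in those labelled WT, with a log2 change of 0.04 (95% interval -0.15 to 0.24). Srsf1, which encodes the founding SR protein, had a log2 change of -0.04 (95% interval -0.20 to 0.13). Changes of Srsf10, Srsf7, Srsf4 and Srsf6 lay between -0.18 and -0.06.

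**Figure D2:**
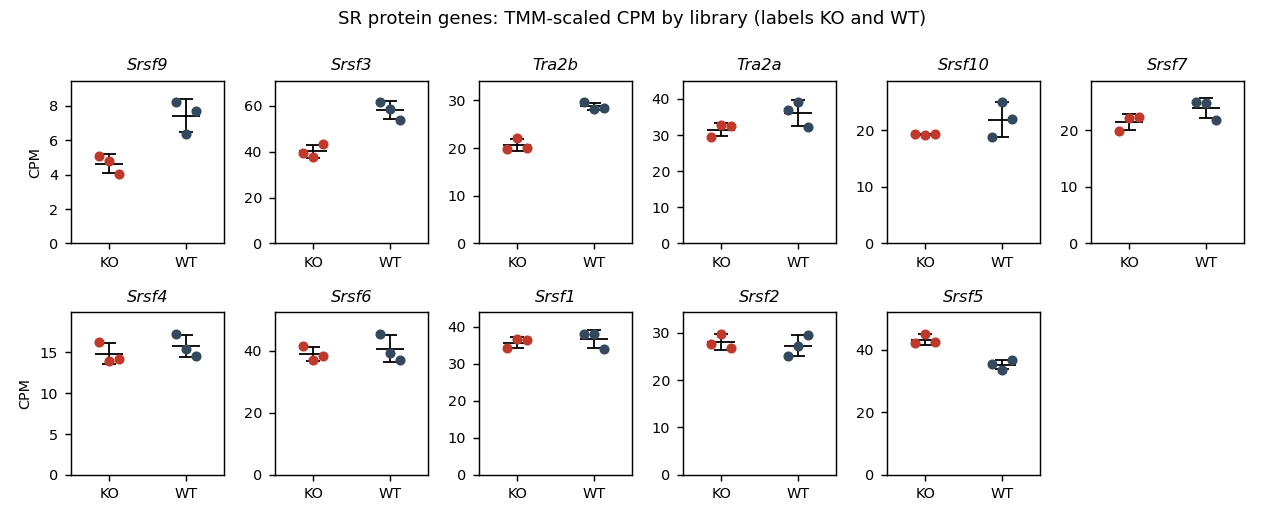
TMM-scaled CPM of the 11 SR protein genes in each library (points), labelled KO left of labelled WT, with the mean and SD of each group (n = 3) as bars. Panels run by log2 change, with Srsf9, Srsf3 and Tra2b lower in KO at the start and Srsf5 higher at the end, and the 7 between them overlap.

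SR genes are known to limit their own output by splicing in poison exons, which send the transcript to nonsense-mediated decay. In the transcript biotypes given in the deposited table, 10 of the 11 SR genes (90.9%) carried a transcript annotated for nonsense-mediated decay, against 76.9% of the SR kinases and partners outside the term, 44.4% of hnRNP genes, 29.3% of snRNP genes and 32.5% of tested members. The share was 19.2% of all tested protein-coding genes and 24.0% of those with a mean FPKM in the members' interquartile range. Srsf10 was the SR gene without this annotation. Transcripts with a retained intron were annotated in 74.8% of tested members and in 54.4% of all tested protein-coding genes. Gene counts join all transcripts of a gene, so which of its transcripts a change fell on was not measured.

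Among kinases and partners of SR proteins, which lie outside the KEGG term, 5 of 13 tested genes rose and 0 fell by edgeR, against 11.5% and 10.5% of all genes. At an unadjusted p of 0.05 and with DESeq2 the counts were also 5 and 0, with limma on FPKM they were 6 and 0, and after quantile normalization 4 and 0. The median was 0.21 on the log2 scale, and changes ran between -0.19 and 0.50. Clk1, a nuclear kinase that phosphorylates SR proteins, had 102, 98.6 and 107 CPM in libraries labelled KO, against 75.9, 81.5 and 68.8 CPM in those labelled WT. It rose by 0.44 (SE 0.07, adjusted p = 0.000837), and the groups did not overlap. Srpk3, an SR protein kinase of striated muscle, had 18.7, 17.6 and 20.9 CPM in libraries labelled KO, against 14.7, 12.7 and 13.1 CPM in those labelled WT, and it rose by 0.50 (adjusted p = 0.00597). Son and Srrm2, which encode large scaffold proteins of nuclear speckles, rose by 0.35 and 0.48 (adjusted p = 0.000387 and 0.00334). Son had 122, 123 and 118 CPM in libraries labelled KO, against 94.5, 97.7 and 92.1 CPM in those labelled WT, and these 4 calls held in all 17 alternatives. Son overlaps Donson, and Srrm2 overlaps Elob, each on the opposite strand, and since the sources used here do not give the strand setting of the counting, reads of these pairs cannot be told apart. Clk4, named after its values were seen, rose by 0.25 (adjusted p = 0.0311), a call lost without any 1 library other than the first labelled KO (adjusted p = 0.053 to 0.13). Summed levels of the SR kinase list were 534 to 539 CPM in libraries labelled KO and 430 to 462 CPM in those labelled WT.

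Among the hnRNP genes of the term 2 of 9 fell by edgeR and 0 rose, so that 22.2% were called, against 22.0% of all genes. At an unadjusted p of 0.05 and with DESeq2 3 were lower and 0 higher. The class median was -0.13 on the log2 scale, and on the deposited FPKM scale it was 0.02, a difference of -0.13 from all genes. Hnrnpk (ENSMUSG00000021546, chr13:58391142-58403343), a KH-domain protein that binds C-rich RNA, had 44.5, 50.5 and 49.5 CPM in libraries labelled KO, against 60.4, 62.6 and 55.4 CPM in those labelled WT. It fell by 0.30 (SE 0.07, adjusted p = 0.0121), and the call was lost without the first library labelled KO (adjusted p = 0.057) or the second labelled WT (0.051) and with limma on FPKM (-0.14, adjusted p = 0.14). Over all its alternatives the adjusted p ran between 3e-05 and 0.14. Hnrnpa1 (ENSMUSG00000046434, chr15:103240432-103246692), which represses splicing and competes with SR proteins for sites, had 26.8, 30.2 and 26.5 CPM in libraries labelled KO, against 34.5, 35.5 and 34.5 CPM in those labelled WT. It fell by 0.32 (SE 0.08, adjusted p = 0.0127), and its call was lost without the first or the third library labelled KO (adjusted p = 0.058 and 0.06) and with limma on FPKM (-0.16, adjusted p = 0.13). Across its alternatives the adjusted p lay between 5.5e-05 and 0.14, and processed copies of this gene in the genome make its counts less certain. Hnrnpk overlaps Rmi1 on the opposite strand.

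The most abundant hnRNP gene per length was Pcbp1, which encodes a poly(C)-binding protein, at a mean of 17.1 FPKM. It had a log2 change of -0.13 (95% interval -0.30 to 0.05). Hnrnpa3 was chosen for naming after its values were seen, because its libraries disagreed within each group. It had 0.309, 25.2 and 2.81 CPM in libraries labelled KO and 31.6, 32.0 and 3.69 CPM in those labelled WT (log2 change -1.25, SE 1.07). High and low libraries occurred under both labels, and the gene has near-identical copies between which reads could be split. Rbmx and its retrocopy Rbmxl1 had log2 changes of 0.25 and -0.48, neither past the threshold, and the split of reads between them is likewise uncertain.

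hnRNP genes outside the term, 18 in all, had 3 lower and 1 higher, with a median of -0.15. That is 22.2% called, close to the 22.0% of all genes. Hnrnpul2 fell by 0.44 (adjusted p = 0.00355), Pcbp2, a second poly(C)-binding protein, by 0.24 (adjusted p = 0.00368) and Hnrnpf, which binds G-rich runs, by 0.24 (adjusted p = 0.0261). Hnrnpl, which binds CA repeats, rose by 0.32 (adjusted p = 0.0108) and lost its call without the third library labelled KO (adjusted p = 0.054, with 2.4e-05 to 0.054 over the alternatives). Pcbp2 had 91.4, 93.5 and 90.8 CPM in libraries labelled KO, against 108, 110 and 108 CPM in those labelled WT. The falls of Hnrnpul2, Pcbp2 and Hnrnpf were not called with limma on FPKM (adjusted p = 0.087, 0.35 and 0.37), and that of Hnrnpf was also lost without any 1 library labelled KO or the first labelled WT (adjusted p = 0.05 to 0.1).

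Most snRNP proteins, the core of the machine, did not pass the test. Of 58 tested, 5 rose (8.62%, against 11.5% of all genes) and 0 fell by edgeR (against 10.5% of all genes), while 11 were higher and 3 lower at an unadjusted p of 0.05, and DESeq2 called 11 higher and 2 lower. The class median was 0.06, with 34 positive and 24 negative changes, and on the deposited FPKM scale it was 0.15, equal to that of all genes. After quantile normalization of FPKM, where 53 were tested, 1 was called higher and 2 lower. Their summed level was 950 to 979 CPM in libraries labelled KO and 903 to 916 CPM in those labelled WT.

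In the U4/U6 and U5 class, which has 15 members, 2 rose and 0 fell, or 13.3% called, against 22.0% of all genes. Prpf8 (ENSMUSG00000020850, chr11:75486816-75509449), the U5 protein that cradles the catalytic RNA core, had 26.3, 22.6 and 24.0 CPM in libraries labelled KO, against 18.5, 18.6 and 16.7 CPM in those labelled WT. The groups did not overlap, and it rose by 0.44 (SE 0.09, adjusted p = 0.00649), a call that held in all 17 alternatives with an adjusted p of at most 0.036. Snrnp27 (ENSMUSG00000001158, chr6:86675151-86684522), a protein of the tri-snRNP, had 15.5, 16.3 and 17.3 CPM in libraries labelled KO, against 12.7, 13.5 and 10.3 CPM in those labelled WT. It rose by 0.43 (SE 0.12, adjusted p = 0.0242), and the call was lost without the second or the third library labelled KO or the third labelled WT (adjusted p = 0.063, 0.077 and 0.076, with 0.00092 to 0.077 over the alternatives). Partners of Prpf8 in U5 snRNP, the U4/U6-unwinding helicase Snrnp200 and the GTPase Eftud2, had log2 changes of 0.21 (adjusted p = 0.0694) and 0.16 (adjusted p = 0.244), and in both the groups did not overlap.

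U2 snRNP, with 22 members, had 1 call, or 4.55%, against 22.0% of all genes. Sf3b1 (ENSMUSG00000025982, chr1:54985169-55027481), which clamps the branch point, had 103, 105 and 106 CPM in libraries labelled KO, against 89.4, 95.1 and 94.6 CPM in those labelled WT. The groups did not overlap, and it rose by 0.17 (SE 0.05, adjusted p = 0.0301), a call lost without any 1 library except the third labelled WT (adjusted p = 0.052 to 0.12, with 0.00059 to 0.25 over the alternatives). Its partner Phf5a, in the same branch-point complex, had 18.8, 21.6 and 23.5 CPM in libraries labelled KO, against 16.2, 18.3 and 17.9 CPM in those labelled WT (log2 change 0.29, adjusted p = 0.08). Sf3a3, of the SF3a complex, had 6.33, 8.07 and 7.85 CPM in libraries labelled KO, against 9.03, 10.0 and 10.2 CPM in those labelled WT (log2 change -0.39, adjusted p = 0.0596). Puf60, which helps U2AF bind, had a log2 change of 0.21 (adjusted p = 0.132). U2af2, which binds the polypyrimidine tract and is named after its values were seen, had a log2 change of -0.16 (adjusted p = 0.249).

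Sm proteins form the ring around most spliceosomal snRNAs, and LSm proteins form that of U6. Snrpb (ENSMUSG00000027404, chr2:130171414-130179403), which encodes SmB, had 35.4, 32.0 and 35.7 CPM in libraries labelled KO, against 29.3, 26.4 and 27.4 CPM in those labelled WT. It rose by 0.31 (SE 0.08, adjusted p = 0.0168), and its call was lost without the first or the third library labelled KO or the second labelled WT (adjusted p = 0.068, 0.07 and 0.064, with 0.00013 to 0.07 over the alternatives). Lsm4 (ENSMUSG00000031848, chr8:70673248-70678752) had the highest mean FPKM of all members, 24.2. It had 31.0, 29.8 and 29.2 CPM in libraries labelled KO, against 24.7, 27.1 and 24.1 CPM in those labelled WT, and rose by 0.25 (SE 0.08, adjusted p = 0.0496). This call held in 5 of 17 alternatives and was lost without any 1 library other than the second labelled WT (adjusted p = 0.088 to 0.15, with 0.0033 to 0.21 over the alternatives). Another protein of the LSm ring, Lsm8, had 4.24, 3.21 and 4.23 CPM in libraries labelled KO, against 6.12, 5.81 and 4.86 CPM in those labelled WT (log2 change -0.52, adjusted p = 0.0669). The Sm proteins Snrpd2, Snrpd3 and Snrpf had log2 changes of 0.27, 0.23 and -0.42 (adjusted p = 0.115, 0.167 and 0.132), with overlapping groups in each. Snrpg and Lsm5 could not be compared closely. In Snrpg, chosen for this after its values were seen, the third library labelled WT stood apart, with 6.21, 5.92 and 6.32 CPM in libraries labelled KO and 7.97, 7.50 and 1.93 CPM in those labelled WT, and Lsm5 stayed below 1 CPM in every library.

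U1 snRNP proteins, 7 in all, had 0 calls by edgeR, which called 22.0% of all genes. At an unadjusted p of 0.05, 2 were higher, and DESeq2 called 2 higher. Snrnp70, which binds U1 RNA directly, had 25.4, 30.8 and 27.5 CPM in libraries labelled KO, against 24.5, 25.4 and 22.1 CPM in those labelled WT (log2 change 0.22, adjusted p = 0.14), so that the groups nearly touched. Prpf40b had a log2 change of 0.22 as well (adjusted p = 0.114), and Snrpc, which stabilises the pairing of U1 with the 5′ splice site, of 0.20 (adjusted p = 0.215).

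**Figure D3:**
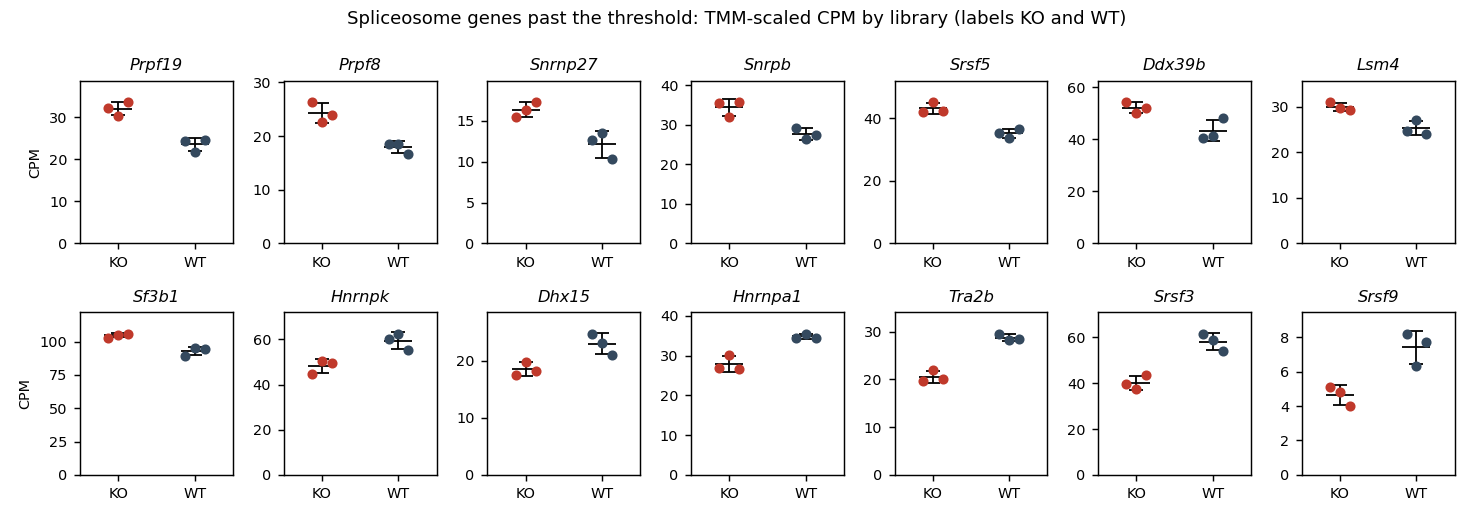
TMM-scaled CPM of the 14 spliceosome genes past the threshold in each library (points), labelled KO left of labelled WT, with the mean and SD of each group (n = 3) as bars; every axis starts at 0. The first 8 panels hold the genes that were higher in KO and the last 6 those that were lower, and the groups do not overlap in any panel.

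Of the 21 genes of the PRP19 complex and its partners 1 rose and 0 fell by edgeR, or 4.76% called, against 22.0% of all genes. At an unadjusted p of 0.05, 4 were higher and 0 lower, and DESeq2 called 4 higher and 0 lower. Prpf19 (ENSMUSG00000024735, chr19:10895231-10905532), the ubiquitin ligase that gives the complex its name, had 32.2, 30.4 and 33.6 CPM in libraries labelled KO, against 24.3, 21.8 and 24.7 CPM in those labelled WT. All libraries labelled KO lay above all labelled WT, and the gene rose by 0.44 (SE 0.08, adjusted p = 0.00323). Its call held in all 17 alternatives, with an adjusted p of at most 0.019. Cdc5l, which binds PRP19 directly, had 15.1, 11.6 and 13.4 CPM in libraries labelled KO and 11.2, 11.7 and 7.53 CPM in those labelled WT, with overlap (log2 change 0.40, adjusted p = 0.121). Bud31, Ccdc12 and Cwc15 had log2 changes of 0.24, 0.29 and 0.18 (adjusted p = 0.124, 0.143 and 0.27), and Cwc15 had the highest mean FPKM of the class, 12.8. The class median was 0.00.

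Helicases and second-step factors, 8 in all, had 1 call, or 12.5%, against 22.0% of all genes. Dhx15 (ENSMUSG00000029169, chr5:52150203-52190514), the helicase that takes the spent spliceosome off the intron lariat, had 17.6, 19.9 and 18.3 CPM in libraries labelled KO, against 24.8, 23.2 and 21.1 CPM in those labelled WT. It fell by 0.31 (SE 0.09, adjusted p = 0.0406), and the call was lost without any 1 library except the third labelled WT (adjusted p = 0.054 to 0.14) and with limma on FPKM (-0.11, adjusted p = 0.3), with 0.0039 to 0.3 over the alternatives. Ddx5, a helicase and cofactor of transcription with the highest mean FPKM of the class, 22.8, had 145, 147 and 156 CPM in libraries labelled KO, against 139, 144 and 142 CPM in those labelled WT (log2 change 0.08, 95% interval -0.02 to 0.18). Cdc40 and Dhx16 had log2 changes of -0.37 and -0.20 (adjusted p = 0.152 and 0.181). In the class of other members Gm16286, Rp9 and Pqbp1 were tested, and their log2 changes lay between -0.10 and 0.18, none past the threshold by edgeR or DESeq2 or at an unadjusted p of 0.05. With limma on FPKM 1 of this class was called higher, where 32.6% of all genes were, and after quantile normalization 0 were.

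Among 13 genes of the exon junction, TREX and cap-binding complexes, 1 rose and 0 fell, or 7.69% called, against 22.0% of all genes. Ddx39b (ENSMUSG00000019432, chr17:35241746-35253707), an RNA helicase that helps U2 snRNP bind and then hands mRNA to export, had 54.2, 50.2 and 52.0 CPM in libraries labelled KO, against 40.6, 41.2 and 48.0 CPM in those labelled WT. It rose by 0.27 (SE 0.08, adjusted p = 0.0309), a call lost without any 1 library except the third labelled WT (adjusted p = 0.058 to 0.12, with 0.0006 to 0.12 over the alternatives). Ncbp2, the small subunit of the nuclear cap-binding complex, had 8.72, 8.06 and 7.34 CPM in libraries labelled KO, against 11.8, 8.83 and 12.1 CPM in those labelled WT (log2 change -0.44, adjusted p = 0.0509). Of the core exon junction proteins, the helicase Eif4a3 had a log2 change of 0.23 (adjusted p = 0.154), Rbm8a of -0.24 (adjusted p = 0.15) and Magoh of -0.11 (adjusted p = 0.643), with overlapping groups in each.

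Among 23 tested muscle and tissue splicing regulators outside the term, 2 rose and 6 fell by edgeR, against 11.5% and 10.5% of all genes. The median of this list was -0.10 on the log2 scale. limma tested only genes with FPKM of at least 1 in 3 libraries, so that Celf2 and Esrp1, which fell by edgeR, were not tested. On FPKM it called 3 higher and 0 lower, and after quantile normalization 2 and 2. Over the 23 tested by edgeR, the median change in either direction was 0.32, against 0.16 for the spliceosome members and 0.34 for all genes. Of these 23, 7 (30.4%) had a 95% interval within 1.5-fold. Rbm38, an RNA-binding protein that controls splicing in muscle and red cell differentiation, had 29.0, 24.5 and 25.0 CPM in libraries labelled KO, against 9.93, 10.4 and 11.5 CPM in those labelled WT. It rose by 1.30 on the log2 scale (SE 0.10, adjusted p = 8.13e-06), the largest rise among the 80 regulators tested, and its groups did not overlap. Mbnl1, the muscleblind protein that sets adult isoforms in muscle, had 33.5, 36.5 and 31.7 CPM in libraries labelled KO, against 46.6, 46.4 and 46.1 CPM in those labelled WT, and it fell by 0.45 (adjusted p = 0.00114). Celf2, of a family that often opposes muscleblind proteins, fell by 0.53 (adjusted p = 0.00243), with 13.1, 13.7 and 13.7 CPM in libraries labelled KO and 20.7, 20.0 and 17.8 CPM in those labelled WT. The call for Mbnl1 was lost with limma on FPKM (-0.20, adjusted p = 0.077, with 8.5e-11 to 0.077 over the alternatives). Esrp1, an epithelial splicing regulator, had 0 counts in each library labelled KO and 25, 16 and 26 counts in those labelled WT. It was set against a floor of 12 counts per library. That is 3 read pairs if 1 pair adds 4 counts, an assumption not shown by these data. The mean of the libraries labelled WT, 0.351 CPM, was 2.09-fold that floor, taken as 0.168 CPM. The adjusted p of 0.00607 is that of the edgeR fit and not of this ratio. The others that passed, named after their values were seen, were Tial1 (log2 change 0.41), Rbpms (-0.58), Rbfox2 (-0.38) and Celf1 (-0.54). Tial1 lost its call without the second library labelled KO (adjusted p = 0.066), Rbfox2 without any 1 library labelled KO or the second labelled WT (0.054 to 0.068), and Celf1 without any 1 library except the third labelled WT (0.061 to 0.13). Rbpms lost its call with limma on FPKM (adjusted p = 0.061).

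Genes of the minor spliceosome and of snRNP assembly gave 1 call each, or 9.09% and 6.67% of those tested, against 22.0% of all genes. Zmat5, a protein of the U11/U12 snRNP, had 7.36, 9.56 and 7.29 CPM in libraries labelled KO, against 4.68, 6.17 and 4.94 CPM in those labelled WT. It rose by 0.62 (SE 0.17, adjusted p = 0.0231) and was the minor spliceosome's call among 11 genes, lost without the second library labelled KO or the first or the third labelled WT (adjusted p = 0.11, 0.085 and 0.072). Gemin7, a subunit of the SMN complex that loads Sm rings onto snRNA, rose by 0.34 (adjusted p = 0.0422), and this call among 15 genes was lost without any 1 library except the first labelled WT (adjusted p = 0.053 to 0.16). Next in p came Rnpc3 and Zrsr2 (log2 change -0.62 and -0.31, adjusted p = 0.151 and 0.291) in the first list and Gemin5 and Sart3 (0.49 and 0.34, adjusted p = 0.109 and 0.183) in the other. Over all 5 regulator lists 10 of 80 tested genes rose and 9 fell, or 23.8% called, close to the 22.0% of all genes.

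**Figure D4:**
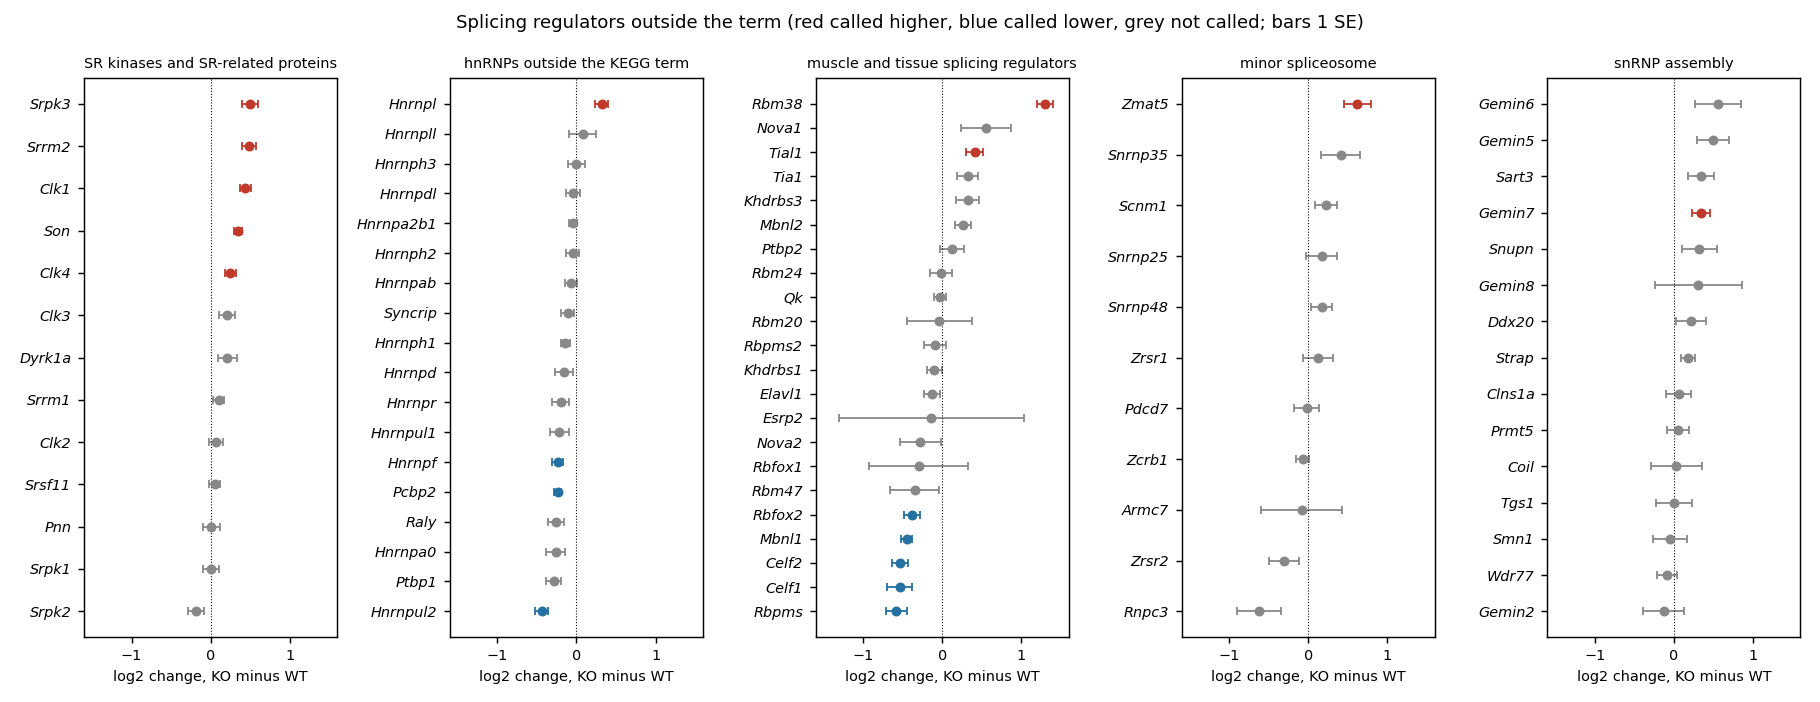
Log2 change, KO minus WT, with 1 SE as bars, of the tested splicing regulators outside the KEGG term, by list; red marks genes called higher, blue genes called lower and grey those not called. Esrp1 is not drawn because its counts are 0 in the libraries labelled KO; Rbm38 at 1.30 lies farthest to the right, and the 5 called SR kinase and speckle genes are all to the right of 0.

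Markers of other cell types moved in the same libraries. Summed over 10 markers, skeletal muscle came to 29400 to 30400 CPM in libraries labelled KO and 23000 to 23600 CPM in those labelled WT, with 7 markers higher and 1 lower. Smooth muscle, the main cell of the aortic media, came to 272 to 276 CPM in libraries labelled KO and 616 to 628 CPM in those labelled WT, with 7 of 9 lower, 1 higher and Myocd at 0 in all libraries labelled KO. Fibroblast markers came to 179 to 200 CPM in libraries labelled KO and 555 to 587 CPM in those labelled WT, with all 7 lower. Hepatocyte markers lay at 8.02 to 9.38 CPM in libraries labelled KO and 82.4 to 84.4 CPM in those labelled WT, with all 5 lower. Macrophage markers were at 73.4 to 81.0 CPM in libraries labelled KO and 122 to 136 CPM in those labelled WT, with 3 of 5 lower. Neutrophil markers were at 25.2 to 29.1 CPM in libraries labelled KO and 1.92 to 3.49 CPM in those labelled WT, with all 4 higher and Retnlg at 0 in all libraries labelled WT. Endothelial markers, at 454 to 459 CPM in libraries labelled KO and 472 to 495 CPM in those labelled WT, and adipocyte markers, at 2240 to 2340 CPM in libraries labelled KO and 2280 to 2340 CPM in those labelled WT, each had 2 of 6 higher and 2 lower. The tissue label is aorta, and the labels' extraction protocol mentions an adipose type. The part of these differences in the changes of spliceosome and regulator genes was not tested.

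**Figure D5:**
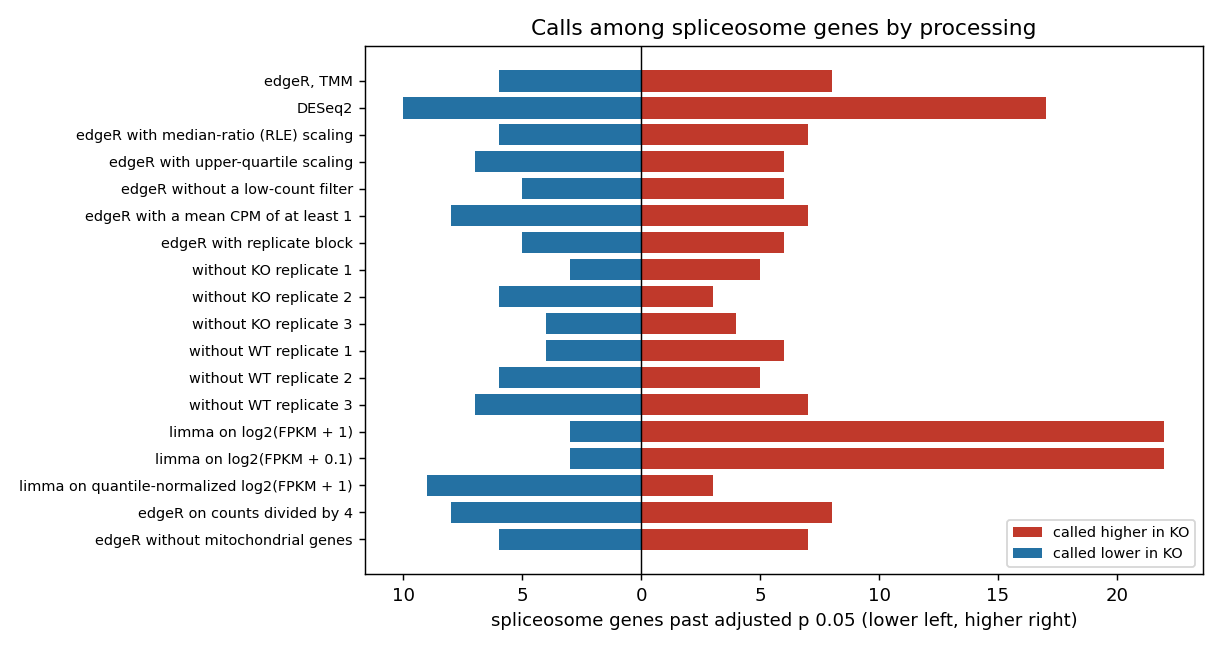
Number of spliceosome genes past an adjusted p of 0.05, higher in KO to the right of 0 and lower to the left, under edgeR with TMM scaling (8 higher, 6 lower) and each of 17 alternatives. limma on FPKM, which tested 112 members against 123 by edgeR, gives 22 higher and 3 lower, and after quantile normalization 3 higher and 9 lower.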

How the data were processed

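Gene expression was measured by RNA sequencing in 3 libraries labelled KO and 3 labelled WT, grouped by the genotype label. The series' design text counts 3 mice a group, but no label identifies an animal, so a p-value reflects only the spread among libraries. The authors deposited whole-number gene counts without normalization, together with FPKM, which the authors scaled by gene length and library total per the file headers; the sources used here name neither the counting program nor its strand setting. Bowtie 0.12.2, HISAT2 2.0 and the build mm8 appear in the submitters' processing notes, with no role. Coordinates in the table equal GENCODE release M21 on GRCm38 for 85.9% of 33815 shared genes and 108 of 126 members, so positions are given as in the table and read as GRCm38. All rows were named (0 without a name), and 0 columns belonged to other samples.

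The count test was edgeR 4.0.16 under R 4.3.3, with filterByExpr, TMM scaling and a two-sided quasi-likelihood F-test on genotype. P-values were adjusted by Benjamini-Hochberg over the 16620 genes tested, with 0.05 as threshold. CPM values are TMM-scaled. Intervals are 95% from the fitted change and its SE. No test was run over the members, whose counts and medians are descriptions. Alternatives were DESeq2 1.42.0, other scalings and filters, a replicate block, leaving out each library, counts divided by 4, removal of mitochondrial genes, and limma 3.58.1 on log2(FPKM + 1) or log2(FPKM + 0.1) for genes with FPKM of at least 1 in 3 libraries. Scripts were tested on simulated data. Overlapping genes and transcript biotypes came from the gene models and from the deposited table, and figures were drawn with matplotlib 3.10.9. Besides Son, Srrm2 and Hnrnpk, the called genes Pcbp2, Hnrnpf, Hnrnpl, Clk4, Zmat5, Gemin7, Rbm38, Rbpms, Rbfox2 and Celf2 overlap a gene on the opposite strand. Clk4, Celf2, Ddx39b, Hnrnpk, Hnrnpul2, Mbnl1, Pcbp2, Rbfox2 and Srrm2 overlap a gene on the same strand. How reads were assigned at these overlaps is not given.

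Members, classes, marker and regulator lists and tests were chosen with earlier results of these data known. Genes were named by rule: in each class the 4 with the smallest p and the 2 with the highest mean FPKM, up to 8 members per direction with the largest change past the threshold (mean FPKM of at least 2 in a group, no overlap), up to 4 per regulator list with the smallest p, and Otud1. Genes named outside it are marked in the text. Of the genes that the naming rule selects, 1 is not reported here.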

Additional observations from a re-analysis of the deposited data

How the results depend on the processing

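Called counts moved with the tool, the scaling and the set of genes tested. The 14 called members kept their sign in all 17 alternatives, and Srsf3, Tra2b, Prpf8 and Prpf19 stayed past the threshold in each. Over all genes, 1751 of 16620 tested (10.5%) were called lower by edgeR and 2629 of 21316 (12.3%) by DESeq2. limma tested 8308 genes and called 736 (8.86%) lower on log2(FPKM + 1) and 727 with a pseudocount of 0.1. Members called higher and lower numbered 8 and 6 of 123 tested with edgeR, and 17 and 10 with DESeq2, which shared all 14. limma tested 112 members and on FPKM called 22 higher and 3 lower at either pseudocount, sharing 11 of the 14. After quantile normalization 3 were called higher. Leaving out each library in turn gave 3 to 7 members higher and 3 to 7 lower, and 7 to 12 of the 14 were kept. Without the third library labelled KO and without the second labelled KO, 4 and 3 members were called higher, and without the first labelled KO and the second labelled WT 5 each, with 3 called lower without the first labelled KO.

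snRNP genes called higher numbered 5 of 58 tested with edgeR, and 11 with DESeq2. limma on FPKM tested 53 and called 11 higher at either pseudocount and 1 after quantile normalization. With upper-quartile scaling, without a low-count filter and with the replicate block 3 were called higher, and 2 to 4 without 1 library. Against 0 called lower by edgeR, 2 were by DESeq2 and after quantile normalization, 1 with a mean CPM of at least 1 and with counts divided by 4, and 0 to 1 without 1 library. hnRNP genes called lower numbered 2 with edgeR, 0 with limma on FPKM at either pseudocount, where 1 was called higher, and 0 to 3 without 1 library. SR genes were called 1 higher and 3 lower in each alternative that kept all libraries, and 0 to 1 higher and 2 to 4 lower without 1 library. Of 80 regulators tested outside the term, 10 were higher and 9 lower with edgeR, and 6 to 9 in each direction without 1 library. limma on FPKM tested 61 of them and called 16 higher and 0 lower at either pseudocount. The cause of these shifts was not tested.

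Replicate numbers did not pair the samples: same-numbered libraries had correlations of 0.0243, -0.00861 and 0.0178 between their deviations from the group means. With the replicate block 6 members were called higher and 5 lower, 11 in all and each among the 14, and 1703 and 1552 of all genes. Among the 69 named genes, 8 that did not pass changed sign in at least 1 alternative. Each called member with a change between 0.17 and 0.31 in size lost its call without at least 1 of the libraries, and so did Hnrnpa1 (-0.32), Snrnp27 (0.43) and Srsf9 (-0.68).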
